A study of Mus musculus with 847 samples.

Results

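C1qa, C1qb and C1qc encode the A, B and C chains of C1q, the recognition molecule of the classical complement pathway. They were taken by name as 3 of the 21076 genes in a table of read counts from mouse brain, and their levels, their change with age and the ratios between them were followed through 15 brain regions. The table holds 847 bulk RNA-seq libraries from 59 C57BL/6JN mice, 25 females and 34 males, an inbred strain with no transgene or treatment given in the labels. There were 5 females and 5 males at 3, 12, 15 and 18 months, 5 females and 6 males at 21 months, and males alone at 26 months (5 mice) and 28 months (3 mice). Each mouse gave at most 1 library to a region, and 37 mice gave all 15 regions.

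C1q is assembled from the A, B and C chains in equal parts and binds antibody complexes, dying cells and tagged synapses. The bound molecule activates the proteases C1r and C1s, which cleave C4 and C2 and so start the cascade that deposits C3. In brain the chains are made mainly by microglia, the resident macrophages, and C1q is known there for marking synapses for removal during development. In bulk tissue, fewer cells of a type and less RNA per cell cannot be told apart.

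The 3 genes lie next to each other on the minus strand of chromosome 4 (GRCm38, GENCODE M21 annotation), in a stretch of 18675 bases, each with 3 exons and no annotated gene overlapping it. C1qb (ENSMUSG00000036905.8) spans 136880129 to 136886187, C1qc (ENSMUSG00000036896.5) spans 136889804 to 136893065, and C1qa (ENSMUSG00000036887.5) spans 136895917 to 136898803. Between C1qb and C1qc lie 3616 bases, and between C1qc and C1qa 2851. The promoter windows of C1qb and C1qc, 250 bases before to 50 after the RefSeq start, are shown because the neighbouring genes moved together in almost every region. They are the RefSeq sequences of GRCm38.p6 at chr4:136886151-136886450 for C1qb and chr4:136892865-136893164 for C1qc, both on the minus strand, and 2 of the 3 genes had a window. Capitals mark 2 searched motifs, GAGGAA or its reverse complement TTCCTC, the core of sites for the myeloid factor PU.1, and TGCTGA (reverse complement TCAGCA), a core bound by MAF factors.
C1qb: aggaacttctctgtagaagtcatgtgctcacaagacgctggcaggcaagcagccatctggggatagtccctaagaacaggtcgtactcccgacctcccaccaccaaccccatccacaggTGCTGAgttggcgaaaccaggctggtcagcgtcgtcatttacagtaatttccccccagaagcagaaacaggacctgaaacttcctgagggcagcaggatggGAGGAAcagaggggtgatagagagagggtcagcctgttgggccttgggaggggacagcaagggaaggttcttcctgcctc
C1qc: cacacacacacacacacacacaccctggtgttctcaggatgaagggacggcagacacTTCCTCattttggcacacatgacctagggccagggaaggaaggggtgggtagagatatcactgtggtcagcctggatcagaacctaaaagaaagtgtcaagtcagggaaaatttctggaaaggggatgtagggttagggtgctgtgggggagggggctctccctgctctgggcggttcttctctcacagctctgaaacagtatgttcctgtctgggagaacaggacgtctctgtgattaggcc
Both windows hold the PU.1 core, at position -30 from the RefSeq start in C1qb and on the other strand at position -193 in C1qc. C1qb also holds the MAF core at position -131. The RefSeq starts differ from the GENCODE gene ends given above. For C1qc the GENCODE start, 136893065, lies upstream of the RefSeq start and inside the window, so its motif is closer to that start. Of 32817 mouse promoter windows of the same length, 28.3% hold the PU.1 core on either strand and 19.5% the MAF core. The interferon-stimulated response element (a pair of GAAA runs 2 bases apart, on either strand), found in 3.43% of windows, matched neither promoter. The motifs do not overlap each other, and a match is a description of the letters.

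Library totals ran from 481444 to 26756735 counted reads (median 6716032), under 1e+06 in 10 of them. At that depth a library held 14 to 2699 reads of C1qa (median 267), 18 to 4470 of C1qb (median 420) and 16 to 2974 of C1qc (median 320), so no library lacked a subunit. All marker genes checked ranked first in their own region for 7 of 15 regions, such as Gabra6 in cerebellum. Anterior hippocampus ranked first for Prox1 and 3 for Wfs1, and motor cortex ranked first and visual cortex 2 for Tbr1. Pons ranked 2 of 15 for Slc6a2 and Hoxb2, the subventricular zone 2 for Dcx and Dlx2, corpus callosum 3 for the myelin genes Mbp and Mog, posterior hippocampus 3 and 5 for Prox1 and Wfs1, and entorhinal cortex 5 for Tbr1. A library labelled entorhinal cortex (mouse 52, female, 21 months) had the cortical gene Tbr1 at 0.292 CPM (reads of the gene per 1e+06 counted, scaled by TMM factors), where the other 50 libraries of the region had 11.5 to 81.8 CPM. A male subventricular zone library (mouse 3) carried Xist at 113 CPM, against at most 15.1 CPM in the other 484 male libraries, and a female posterior hippocampus library (mouse 38) carried Y-linked genes at 24.1 CPM, against at most 5.18 CPM in the other 361 female libraries. These 3 libraries were kept, and leaving them out changed no call for a subunit's age slope within a region.

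Averaged over all ages, C1q RNA was most abundant in pons, caudate putamen and corpus callosum and least abundant in cerebellum. On that average C1qa was at 60.5 ± 20.2 CPM in pons (SD, n = 51) and 59.3 ± 16.6 CPM in caudate putamen (SD, n = 58), and at 28.7 ± 11.8 CPM in cerebellum (SD, n = 58). C1qb was at 103 ± 32.9 CPM in pons and 43.5 ± 16.6 CPM in cerebellum, and C1qc at 72.3 ± 24.6 and 31.0 ± 12.4 CPM. The other regions lay between these ends, corpus callosum near the top with C1qa at 56.8 ± 18.2 CPM (n = 57) and the visual cortex (31.6 ± 4.55, n = 56), motor cortex (33.8 ± 4.50, n = 59) and entorhinal cortex (33.8 ± 10.9, n = 51) near the bottom. The remaining means of C1qa, in CPM, were 50.6 in choroid plexus, 50.3 in medulla, 44.2 in the subventricular zone, 43.9 and 39.5 in anterior and posterior hippocampus, 38.7 in thalamus, 37.7 in olfactory bulb and 36.3 in hypothalamus.

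Most neighbours did not differ beyond their spread when regions were ordered by mean log2 CPM, which for C1qa puts caudate putamen just above pons. Of 14 neighbouring pairs per subunit, tested by permutation with 100000 resamples on log2 CPM, none of C1qa passed an adjusted p of 0.05. This test shuffled libraries between the regions and did not use the pairing of libraries from the same mouse. For C1qb, visual cortex was above cerebellum by 0.30 log2 units (adjusted p = 0.00252 by permutation) and anterior above posterior hippocampus by 0.14 (adjusted p = 0.0440). For C1qc, motor cortex was above cerebellum by 0.44 (adjusted p = 0.00014). Comparing regions within mice by sign flips, which does use the pairing, gave 4, 5 and 4 differing neighbours for C1qa, C1qb and C1qc. For C1qa, corpus callosum was then above choroid plexus by 0.20 (adjusted p = 0.00014 by sign flips, 0.206 by the unpaired permutation). The order over all ages mixes regions that rose at different rates, and the young mice did not keep it. In the 3-month mice alone, again tested unpaired, 9, 5 and 4 neighbours differed, but 3 of the 9 for C1qa and 1 of the 5 for C1qb in the opposite direction. At that age C1qa averaged 45.2 CPM in caudate putamen, 38.2 in corpus callosum and 34.1 in pons. Pons lay below caudate putamen by 0.42 log2 units (adjusted permutation p = 0.00437), where over all ages the gap was 0.0045 in the same direction. The opposite direction was found for C1qb, lower in pons than in caudate putamen (difference -0.24, adjusted permutation p = 0.0301). For C1qa it was found in medulla, lower than anterior hippocampus (-0.34), in thalamus, lower than olfactory bulb (-0.42), and in hypothalamus, lower than motor cortex (-0.27). Cerebellum stayed at the bottom, with visual cortex above it by 1.03 for C1qa (adjusted permutation p = 0.00084).

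All 3 subunits rose with age in most regions, and the steepest rises were in cerebellum, medulla and pons. In cerebellum, C1qa was at 12.2 CPM in the lowest, 13.1 in the median and 19.7 in the highest of 10 libraries at 3 months, and at 24.3, 33.4 and 48.8 CPM in 11 libraries at 21 months. C1qb went from 18.1, 22.1 and 30.3 CPM to 36.8, 48.4 and 69.1 CPM, and C1qc from 12.2, 16.4 and 19.7 CPM to 24.9, 35.0 and 54.8 CPM. No cerebellar library of 21 months overlapped the 3-month libraries for any subunit. The 3 males of 28 months had C1qa at 37.8, 47.4 and 51.6 CPM, all above every 3-month library.

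The age slope, fitted per region by edgeR's quasi-likelihood test with sex as a covariate and adjusted over all genes tested, was 0.08 log2 units per month for C1qa in cerebellum (SE 0.0054), a 3.70-fold rise when carried over the 25 months from 3 to 28. The fitted slopes of C1qb and C1qc gave 3.18-fold and 3.53-fold over the same span. In the libraries themselves, the cerebellar mean CPM at 28 months (males alone) was 3.21, 2.75 and 2.95 times the 3-month mean for C1qa, C1qb and C1qc. In medulla C1qa had a slope of 0.07 (SE 0.0057, 3.20-fold when carried over the span), and its libraries moved from 21.7, 26.7 and 36.9 CPM (lowest, median, highest, n = 10) to 53.3, 64.0 and 137 CPM at 21 months (n = 11). The medulla mean at 28 months was 2.04 times that at 3 months. In pons C1qa moved from 26.6, 33.9 and 47.1 CPM (n = 9) to 48.7, 74.2 and 107 CPM (n = 11). Its slope there gave 3.01-fold over the span, and the 28-month mean was 2.79 times that at 3 months. Neither brainstem region had any overlap between 3 and 21 months for C1qa, C1qb or C1qc, and the same held in choroid plexus and thalamus. The share of all genes whose age groups separate in this way was not counted for any region.

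**Figure D1:**
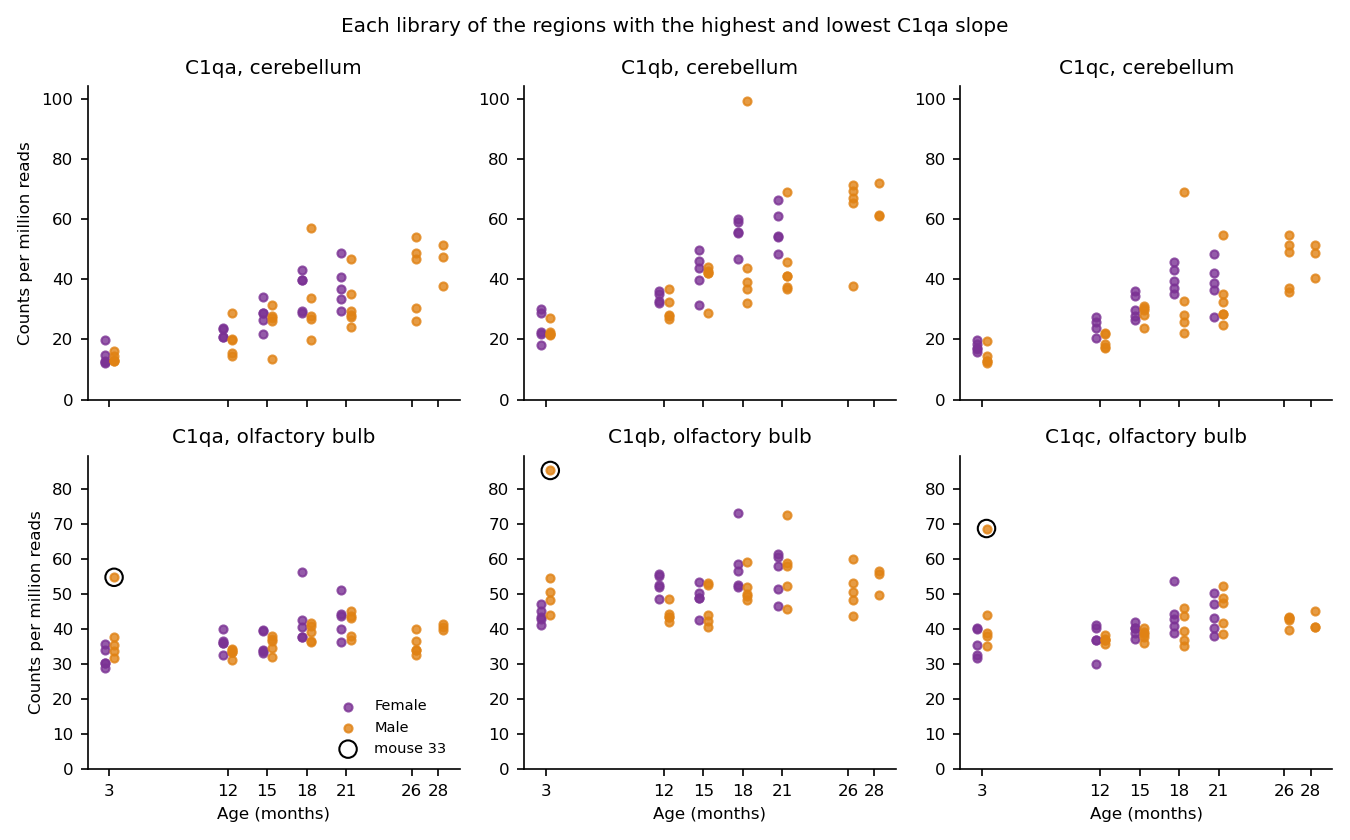
Every library of cerebellum (top) and olfactory bulb (bottom) by age in months, with CPM on the y axis, a panel per subunit and the sexes in colour. C1qa in cerebellum goes from 12.2 to 19.7 CPM at 3 months to 24.3 to 48.8 CPM at 21 months without overlap, and the ringed olfactory bulb library of mouse 33 stands at 54.7 CPM among 3-month libraries of at most 37.6 CPM.

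The regions also differed at the oldest age, where only males were sampled. In caudate putamen the 3 males of 28 months had C1qa at 90.7, 95.6 and 107 CPM, above all 11 libraries of 21 months (highest 76.2 CPM). In medulla they had 51.8, 57.8 and 60.5 CPM, within the 53.3 to 83.9 CPM of the 6 males of 21 months apart from the lowest, while in pons all 3 had 91.2 to 99.0 CPM. These differences between 21 and 28 months were not tested by region.

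Choroid plexus, the tissue that secretes cerebrospinal fluid, and corpus callosum, a white matter tract, came next. C1qa in choroid plexus was at 27.8, 31.7 and 44.7 CPM at 3 months (n = 10) and at 49.1, 68.6 and 130 CPM at 21 months (n = 11). Its slope corresponded to a 2.67-fold rise over 25 months, and the 28-month mean was 2.02 times that at 3 months. In corpus callosum C1qa was at 31.9, 38.8 and 45.1 CPM and then at 49.2, 65.2 and 88.1 CPM. The slope there corresponded to 2.56-fold, and the 28-month mean was 2.52 times that at 3 months. The groups of 3 and 21 months did not overlap for C1qa in either region. With the mean of the microglia genes as a covariate, C1qc in choroid plexus no longer passed (slope 0.0167, edgeR adjusted p = 0.115). Summed choroid plexus epithelium genes (Ttr, Folr1, Kl, Otx2, Aqp1) ranged from 0.540 to 15034 CPM among the 3-month libraries of corpus callosum, and their part in these results was not tested.

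Smaller slopes were found in other forebrain regions. In caudate putamen C1qa moved from 38.8, 45.1 and 51.0 CPM at 3 months (n = 9) to 43.9, 61.5 and 76.2 CPM at 21 months (n = 11), where 10 of 11 libraries lay above the highest young one. Its slopes were 0.04 for each subunit, and those of hypothalamus, thalamus and the subventricular zone lay between 0.0366 and 0.0450. Posterior hippocampus had slopes of 0.0324, 0.0274 and 0.0250 for C1qa, C1qb and C1qc, and anterior hippocampus 0.0283, 0.0255 and 0.0258. All of these slopes passed the test. The 28-month means of C1qa (males alone) were 2.16 and 2.17 times those at 3 months in caudate putamen and the subventricular zone. These exceed the 2.04 of medulla and 2.02 of choroid plexus. The others were 1.71 in hypothalamus, 1.60 in thalamus, and 1.76 and 1.46 in posterior and anterior hippocampus.

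The cortex and the olfactory bulb changed least. In motor cortex C1qa was at 25.6, 31.4 and 35.6 CPM at 3 months (n = 10) and at 32.2, 37.0 and 45.3 CPM at 21 months (n = 11), with 7 of 11 libraries above every young one, and the slopes of 0.0155, 0.0114 and 0.0135 for C1qa, C1qb and C1qc passed the test. In visual cortex 2 of 11 libraries lay above the highest at 3 months. There the slopes of C1qa (0.0120, adjusted p = 0.0117, edgeR) and C1qb (0.0101, adjusted p = 0.0374, or 0.0562 without mouse 40) passed and that of C1qc did not (0.0065, adjusted p = 0.230). Entorhinal cortex, with C1qa at 21.2, 25.5 and 30.9 CPM (n = 9) and then at 26.0, 33.5 and 76.9 CPM (n = 11), gave no call for any subunit, with slopes of 0.0215, 0.0177 and 0.0149 and edgeR adjusted p of 0.319, 0.362 and 0.476. The unadjusted p there were 0.00688, 0.0106 and 0.0330, and leaving out the library of mouse 52 lowered the slopes to 0.0188, 0.0146 and 0.0126.

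In olfactory bulb 1 library set the calls of C1qb and C1qc. The 3-month male mouse 33 had C1qa at 54.7 CPM, C1qb at 85.2 and C1qc at 68.6, while the other 9 libraries of that age reached at most 37.6, 54.5 and 44.0 CPM. With it, C1qa passed (slope 0.0112, edgeR adjusted p = 0.0180) and C1qb (0.0080, 0.148) and C1qc (0.0068, 0.176) did not. Without the library of mouse 33, left out after its values were seen, slopes were 0.0156, 0.0136 and 0.0122 for C1qa, C1qb and C1qc. Their edgeR adjusted p were 0.000152, 0.00192 and 0.000987. Leaving out the highest of the young libraries raises a slope by construction, so these p-values are no test of a rise. With all libraries and the mean of the microglia genes as a covariate, the C1qa call was lost (slope 0.0060, edgeR adjusted p = 0.288). In the library of mouse 33 the summed level of 8 genes shared by myeloid cells was 236 CPM, against 129 to 152 CPM in the other 9, and that of 12 microglia genes was 579 CPM, against 442 to 535 CPM. Their part in the result was not tested.

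Counted over regions, C1qa rose in 14 of 15, C1qb in 13 and C1qc in 12. The share of all tested genes that rose in the same fits was 9.45% in cerebellum, 6.33% in medulla, 3.94% in pons, 11.1% in choroid plexus and 9.06% in corpus callosum. It was 4.5% in the subventricular zone, 3.88% in hypothalamus, 2.32% in thalamus, 7.32% in caudate putamen, 4% in posterior hippocampus and 5.76% in anterior hippocampus. It was 8% in motor cortex, 5.13% in visual cortex, 7.31% in olfactory bulb and 0.0758% in entorhinal cortex, where only 11 of 14519 genes rose. With males alone the counts of regions were 12, 11 and 12 for C1qa, C1qb and C1qc, as C1qa in olfactory bulb and visual cortex and C1qb in motor and visual cortex no longer passed.

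**Figure D2:**
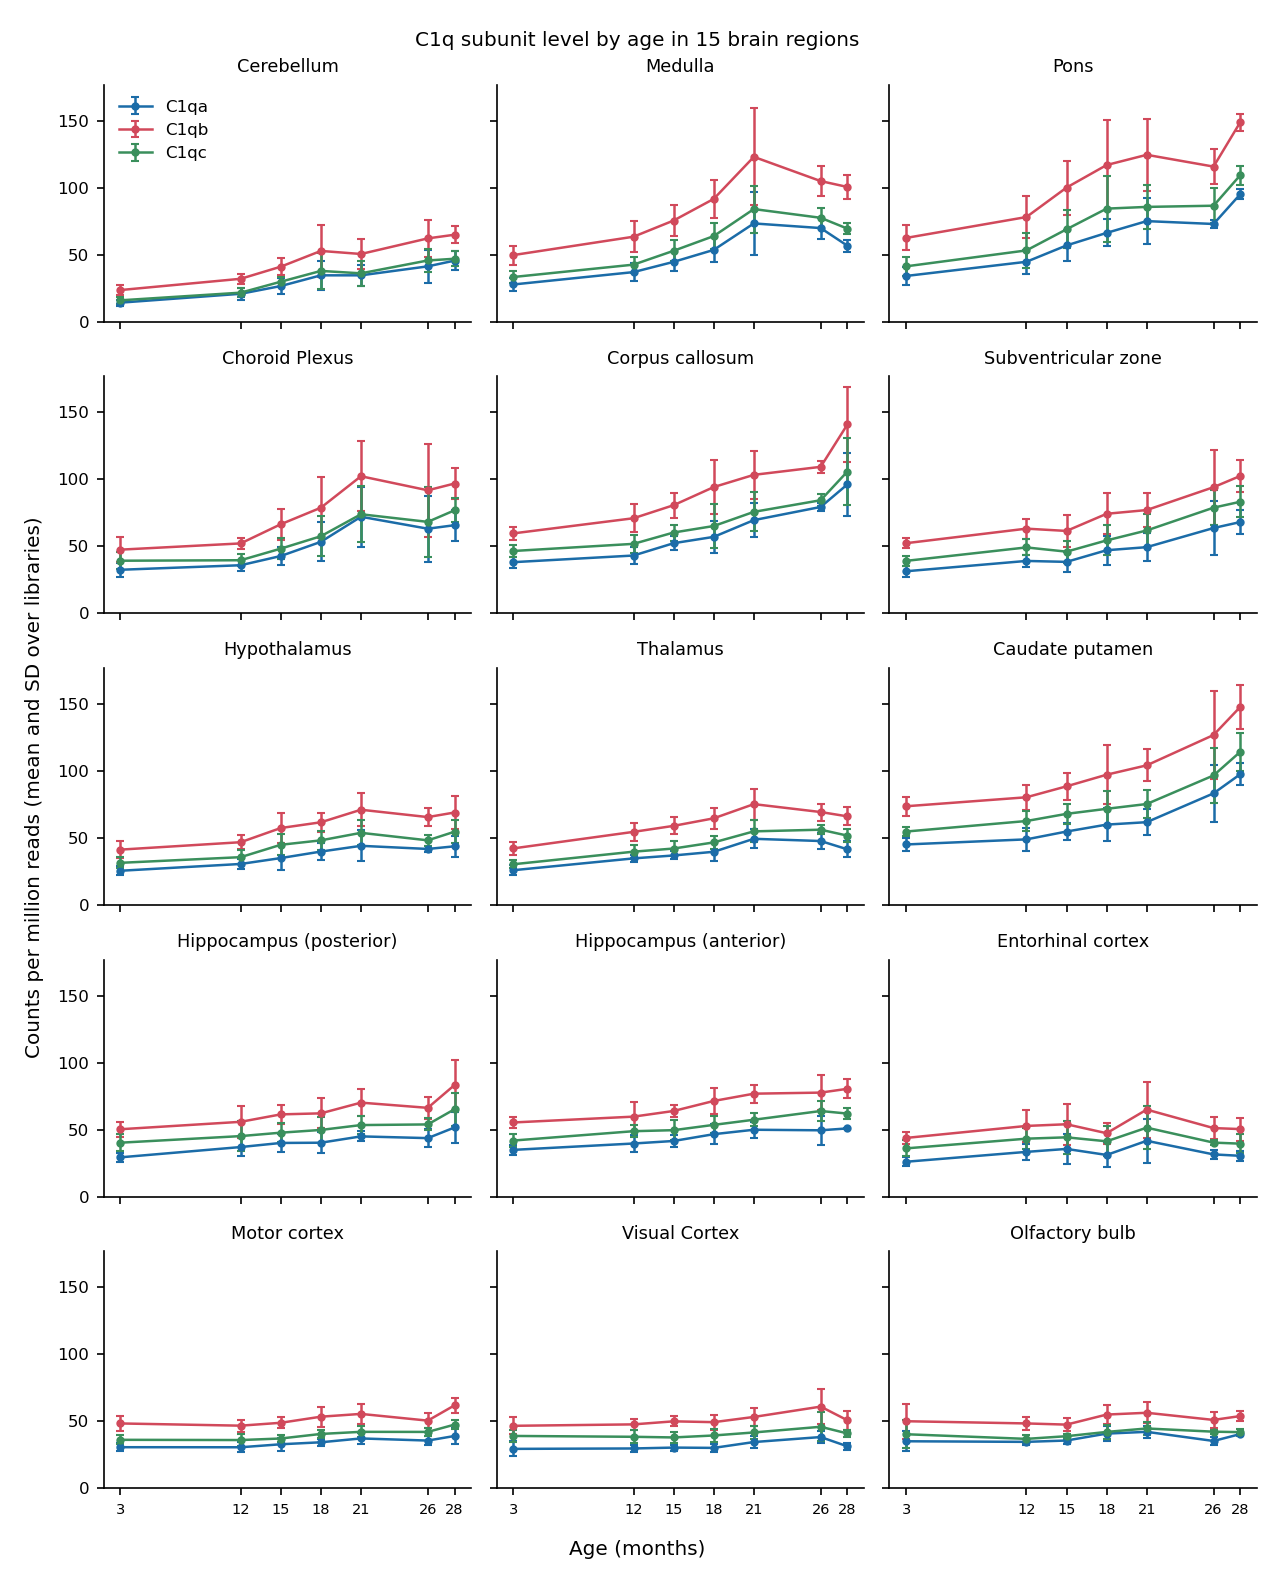
Mean level of C1qa, C1qb and C1qc in CPM (bars: SD over libraries) by age in months, a panel per region on a shared y axis. C1qb is above the other subunits in every panel, and C1qa goes from 34.1 CPM at 3 months to 95.2 CPM at 28 months in pons but only from 35.2 to 42.2 CPM between 3 and 21 months in olfactory bulb.

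**Figure D3:**
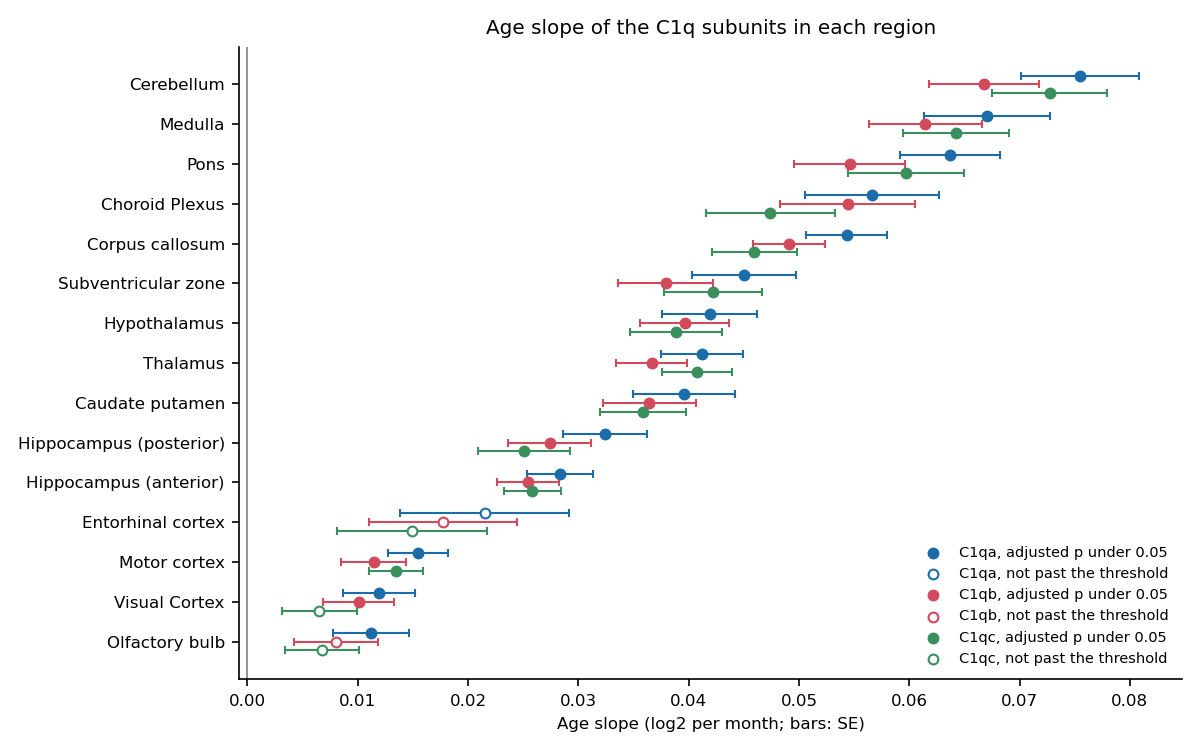
Age slope of each subunit in log2 units per month (bars: SE) for the 15 regions, with filled points where the edgeR adjusted p was under 0.05. Slopes of C1qa run from 0.0112 in olfactory bulb to 0.0755 in cerebellum, and the 3 subunits lie close together in each region.

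Differences between regions in the slope were then tested within mice, as the level in a region minus the mean of the mouse's other regions (limma, adjusted over all 15069 genes). The subunits rose faster than elsewhere in cerebellum, by 0.0354, 0.0317 and 0.0378 log2 units per month for C1qa, C1qb and C1qc (adjusted p of 0.000125, 0.000104 and 7.0e-06), where 1.27% of genes had a higher slope. Medulla exceeded the other regions by 0.0260, 0.0261 and 0.0284 for the 3 subunits (background 0.75%). Pons did so for C1qa (0.0249) and C1qc (0.0257), with C1qb at 0.0201 not passing (adjusted p = 0.0750, background 0.219%). Corpus callosum did so for C1qa (0.0152) and C1qb (0.0138) but not C1qc (0.0102, adjusted p = 0.189, background 1.04%).

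Lower slopes than elsewhere were found for all 3 subunits in the olfactory bulb (by -0.0307, -0.0289 and -0.0301, background 5.02%), visual cortex (-0.0278, -0.0257 and -0.0313, background 1.14%) and motor cortex (-0.0258, -0.0251 and -0.0228, background 1.39%). C1qa also had a lower slope in anterior hippocampus (-0.0125, adjusted p = 0.0468, background 0.113%). That call was lost when the 3 libraries described above were left out (adjusted p = 0.0515), and also when any 1 of 37 of the 59 mice was left out. In the other 7 regions no subunit was called, and 0.138% of gene tests there were called in either direction. Entorhinal cortex had values near those of the areas that passed (-0.0215, -0.0217 and -0.0238) with SEs of 0.0063 to 0.0073 that were larger than the 0.0023 to 0.0035 of the cortical areas and olfactory bulb.

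Over the whole brain, 1 value per mouse and gene was formed from its regions, each centred on the region's mean. C1qa rose by 0.25 log2 units at 12 months, 0.39 at 15, 0.53 at 18, 0.74 at 21, 0.83 at 26 and 0.91 at 28 months, each against 3 months. C1qb rose by 0.19, 0.35, 0.49, 0.66, 0.71 and 0.83 and C1qc by 0.19, 0.34, 0.48, 0.64, 0.75 and 0.84 at the same ages. All 18 contrasts passed (limma), the largest adjusted p being 0.00225 for C1qb at 12 months, and they share the 3-month mice. The share of 15069 genes that rose was 4.85% at 12 months, 6.1% at 15, 12.3% at 18, 15.8% at 21, 14.4% at 26 and 15.6% at 28 months. With males alone, the 12-month differences of C1qb (0.10, adjusted p = 0.291) and C1qc (0.12, adjusted p = 0.0915) did not pass. The mice of 12 and 26 months were numbered 1 to 15 and those of 28 months 57 to 59, while the 3-month mice lie between 17 and 53. For these 3 ages the contrast with 3 months and the run of numbers cannot be told apart.

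As a slope over all 59 mice, C1qa rose by 0.0390 log2 units per month (SE 0.0018, limma adjusted p = 4.5e-26), C1qb by 0.0350 (SE 0.0020, adjusted p = 1.6e-22) and C1qc by 0.0353 (SE 0.0017, adjusted p = 9.2e-26). Among mice 16 to 56 alone, which cover 3, 15, 18 and 21 months, the slopes were 0.0392, 0.0354 and 0.0344. In the fit over all mice 21.2% of genes rose, 26.7% fell and the median slope of all genes was -0.00045. By p, C1qa ranked 7th, C1qc 9th and C1qb 28th of 15069 genes. Region accounted for 39.8%, 48.5% and 44.7% of the variance of C1qa, C1qb and C1qc, and age beside region for 28.6%, 23.8% and 25.5%. For the median gene these shares were 69.1% and 0.586%.

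Females had more C1q RNA than males at 12 to 21 months, and later ages held no females. Over 3 to 21 months, the ages with both sexes, males were lower by -0.17, -0.14 and -0.11 log2 units for C1qa, C1qb and C1qc (limma adjusted p of 2.2e-05, 0.00061 and 0.0014, where 3.96% of genes were lower in males). The age slope was 0.0490 in females and 0.0316 in males for C1qa, 0.0462 and 0.0271 for C1qb, and 0.0435 and 0.0276 for C1qc (n = 25 and 26 mice). The difference in slope passed for all 3, at -0.0174, -0.0191 and -0.0159 (adjusted p of 0.0102, 0.0076 and 0.0115, where 1.7% of genes had a lower slope in males). It no longer passed among the mice with all 15 regions, where the differences were -0.0154, -0.0163 and -0.0143 (adjusted p of 0.171, 0.168 and 0.168).

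Age by age, the mouse values of C1qa, in log2 units relative to the mean at 3 months, were -0.01 ± 0.07 in females and 0.01 ± 0.02 in males at 3 months (SD, n = 5 each, exact permutation p = 0.698). They were 0.31 ± 0.05 and 0.18 ± 0.06 at 12 months (exact permutation p = 0.00794) and 0.65 ± 0.06 and 0.41 ± 0.09 at 18 months (exact permutation p = 0.00794). At 21 months they were 0.90 ± 0.09 in 5 females and 0.59 ± 0.08 in 6 males (exact permutation p = 0.00216), both p being the smallest these groups allow. All 5 females lay above every male at 12, 18 and 21 months and 4 of 5 did at 15 months, while at 3 months the sexes overlapped. The share of all genes that separate the sexes in this way was not counted. For C1qb and C1qc the difference was 0.07 and 0.05 in the opposite direction at 3 months (exact permutation p = 0.103 and 0.0873), and -0.27 and -0.24 at 21 months (p = 0.00649 and 0.00433). The C1qa slope was higher in females in 15 of 15 regions, that of C1qb in 15 and that of C1qc in 14, regions of 1 mouse not being independent. Averaged over 3 to 21 months, the level was higher in females in 15, 15 and 13 regions. For C1qc it was higher in males in olfactory bulb (by 0.03 log2 units) and visual cortex (by 0.02).

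**Figure D4:**
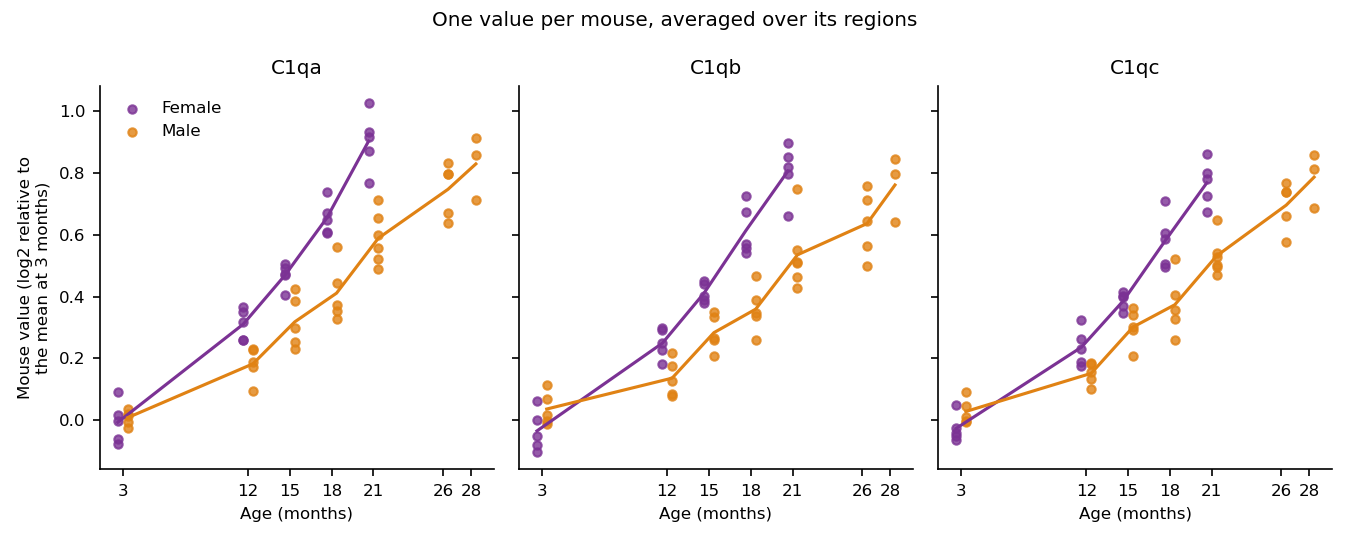
One value per mouse, averaged over its regions, in log2 units relative to the mean at 3 months, by age in months with the sexes in colour and lines through the group means. The sexes overlap at 3 months, while at 21 months C1qa is 0.90 in females and 0.59 in males on average, and the 2 oldest ages hold males only.

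Males of 3, 15, 18 and 21 months were mice 16 to 36 and females of those ages mice 37 to 56, so that the sexes at these ages fall in separate runs of numbers. Whether the numbers mark a batch is not given in the sources used here, and at these ages sex and the run of numbers cannot be told apart. Within 12 months, where the sexes alternate along the numbers, the difference was -0.13, -0.11 and -0.08 for C1qa, C1qb and C1qc (exact permutation p of 0.00794, 0.0159 and 0.0317, n = 5 each). Adjusted over the 5 ages, the difference passed at every age from 12 to 21 months for each subunit.

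The ratios between the subunits spanned a narrower range than their levels. Reads of C1qb outnumbered those of C1qa in the typical library, with a median count ratio of 1.56, while C1qc to C1qa was 1.18 and C1qc to C1qb 0.756. Per length of annotated exon, C1qb exceeded C1qa in 847 of 847 libraries, with a median of 1.49 and a range of 1.02 to 2.42. C1qc and C1qa were about level on this scale, with a median ratio of 1.02 when basic transcripts give the length, or 0.638 when all transcripts of C1qc are counted. In CPM per 1000 exon bases the medians were 37.4 for C1qa, 55.5 for C1qb and 38.2 for C1qc.

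The ratios differed between regions. The geometric mean count ratio of C1qb to C1qa was 1.37 in olfactory bulb, the lowest, and 1.72 in pons and 1.70 in medulla, the highest. For C1qc to C1qa it was 1.08 in olfactory bulb and 1.09 in cerebellum and reached 1.30 in entorhinal cortex, and for C1qc to C1qb it was 0.693 in medulla, 0.695 in pons and 0.817 in entorhinal cortex. The SD of the 15 region means was 0.08, 0.08 and 0.07 on the log2 scale, with a 1-sided permutation p of 1e-05 for each ratio, the smallest that 100000 resamples can give, and the same when regions were permuted within mice.

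Within a region, the spread of a ratio among libraries after age and sex was near that of counting alone. For C1qb to C1qa the residual SD was 0.106 to 0.194 log2 units over the regions, against 0.108 to 0.180 from the read counts under Poisson sampling. In medulla and pons the residual SD was 0.138 and 0.147, above the counting SD of 0.111 and 0.108. A ratio within a library does not depend on library scaling, and a count ratio also carries the mappability and 3' coverage of each transcript.

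With age the balance shifted slightly towards C1qa. Over the mice, C1qb to C1qa fell by 0.0041 log2 units per month (SE 0.00082, permutation p = 2e-05) and C1qc to C1qa by 0.0037 (SE 0.00077, permutation p = 1e-05, the smallest possible). C1qc to C1qb had a slope of 0.00036 (SE 0.00073, permutation p = 0.628). By region, C1qb to C1qa fell in pons, from 1.84 at 3 months to 1.66 at 21 months, and in the subventricular zone, from 1.67 to 1.57 (adjusted permutation p = 0.0231 for both slopes). C1qc to C1qa fell in choroid plexus, from 1.21 to 1.03, in corpus callosum, from 1.22 to 1.09, and in posterior hippocampus, from 1.36 to 1.18 (adjusted p of 0.0018, 0.0018 and 0.012). C1qc to C1qb fell in choroid plexus, from 0.831 to 0.719 (adjusted p = 0.0432). It went from 0.840 to 0.784 in visual cortex and from 0.779 to 0.731 in corpus callosum, which did not pass, and the regions' slopes were not tested against each other.

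**Figure D5:**
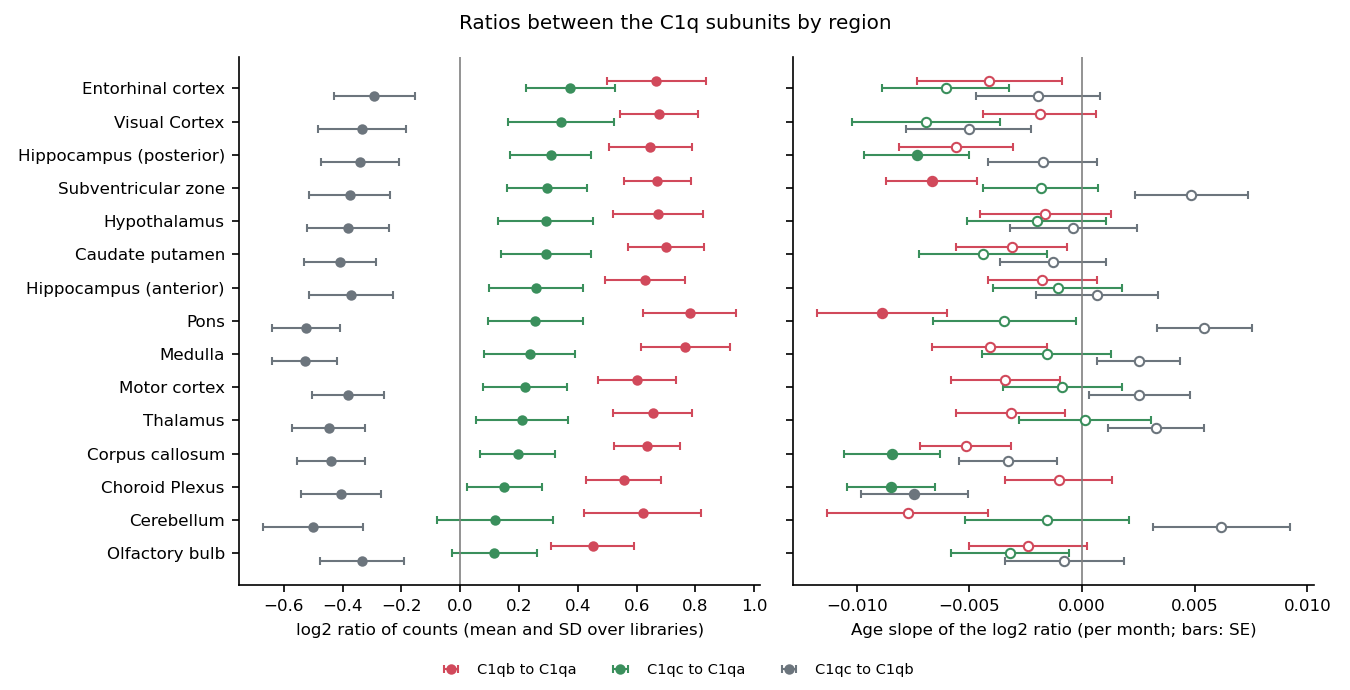
Log2 count ratios of the subunits by region (left, mean and SD over libraries) and their age slopes in log2 units per month (right, bars: SE, filled where the adjusted permutation p was under 0.05). The C1qb to C1qa ratio is highest in pons and medulla and lowest in olfactory bulb, and its slopes lie below 0 in every region.

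Between the sexes, the ratio of C1qc to C1qa was higher in males by 0.05 log2 units (SE 0.012, permutation p = 0.00014) and that of C1qc to C1qb by 0.03 (SE 0.011, permutation p = 0.0128). The difference for C1qb to C1qa was 0.03 (SE 0.013, permutation p = 0.0477). It lost the threshold when 1 of 31 mice was left out, with p up to 0.0827. These are changes of a few percent in the ratio.

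The subunits also followed each other from mouse to mouse. After age and sex were removed, the Pearson r between C1qb and C1qa over the mice of a region was 0.812 in the median region, with a Spearman rho of 0.789. For C1qc with C1qa the medians were 0.805 and 0.818, and for C1qc with C1qb 0.842 and 0.805, over a full range of r from 0.526 to 0.946. All 45 relations passed by permutation (largest adjusted p 4e-05 for r and 0.00087 for rho). The lowest r without the 2 mice farthest from the median was 0.405. The 2 values of a pair come from the same library and share its depth.

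C1q rose relative to a list of 12 microglia genes, but not relative to 8 genes shared by myeloid cells, which are described below. The list of 12 microglia genes rose in 11 members over the mice, from 0.0037 for P2ry12 (limma adjusted p = 0.0753, not passing) to 0.0203 for Cx3cr1. Relative to the mean of these genes, C1qa rose by 0.0261 log2 units per month, C1qb by 0.0220 and C1qc by 0.0224 (permutation p = 1e-05 for each, the smallest possible). The difference was steepest in cerebellum, at 0.0480, 0.0405 and 0.0465 for C1qa, C1qb and C1qc. It passed in every region but olfactory bulb for all 3 subunits and entorhinal cortex for C1qc (adjusted permutation p = 0.107). In olfactory bulb, without mouse 33, slopes against the microglia genes were 0.0085, 0.0070 and 0.0061, with unadjusted permutation p of 0.0022, 0.036 and 0.021. That library was left out after its high C1q values were seen, so these p-values do not replace the adjusted ones.

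In cerebellum the summed level of the microglia genes ran from 176 to 243 CPM at 3 months and from 232 to 336 CPM at 21 months, and that of the 8 pan-myeloid genes from 65.3 to 92.6 CPM and from 132 to 286 CPM. Against those 8 genes (Tyrobp, Fcer1g, Laptm5, Ctss, Aif1, Ptprc, Trem2, Cd68), all of which rose, C1qa had a slope of 0.00086 (permutation p = 0.421). C1qb and C1qc fell by 0.0031 and 0.0028 log2 units per month against them (permutation p = 0.0174 and 0.00593). The median slope over the mice was 0.0404 for the 8 genes and 0.0135 for the 12 microglia genes, beside 0.0390, 0.0350 and 0.0353 for C1qa, C1qb and C1qc. Border macrophage genes, which mark other brain macrophages, rose in 1 of 8 (Ms4a7, 0.0367) and fell in 1 (Lyve1, -0.0221), and 5 of 6 tested monocyte and granulocyte genes rose, beside 21.2% of all genes that rose and 26.7% that fell. The part of these cells in the C1q values was not tested.

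Other complement genes were counted from lists, beside 21.2% of all 15069 genes that rose and 26.7% that fell in the same fit. Of 7 tested early components (13 listed), which act with C1q at the head of the classical and lectin pathways, 4 rose and none fell: C4b (0.109 log2 units per month, the smallest p of all genes), C1s1 (0.0213), C1ra (0.0207) and C2 (0.0126). The median slope of the list was 0.0126, against -0.00045 for all genes. Of 5 tested later components, C3 (0.0844), the central protein of the cascade, and Cfb (0.0098) rose and Cfp (-0.0162), which stabilises the alternative convertase, fell.

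Of 14 tested regulators 3 rose and 3 fell, shares near those of all genes. Among them the C1 inhibitor Serping1 (0.0212) rose, and Csmd2 (-0.0133) and Csmd1 (-0.0062), membrane proteins with complement control domains, fell. Of 11 tested receptors 6 rose, led by C3ar1 (0.0471), the C3a receptor, and the C3 receptor chains Itgb2 (0.0469), Itgax (0.0871) and Itgam (0.0196), and 2 fell. Of 8 tested relatives with a C1q domain, which are secreted neuronal proteins of other function, none rose and C1ql3 (-0.0111), Cbln4 (-0.0115) and Cbln2 (-0.0115) fell, where 26.7% of all genes fell. Of 8 myeloid transcription factors 7 rose, among them Irf8 (0.0341) and Spi1, which encodes PU.1 (0.0287).

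Several genes of macrophages were among those most like C1q. Among the 11953 genes averaging 5 CPM or more, and over 847 libraries, the 10 highest Pearson r with the mean of the 3 subunits on the log2 scale included those of Ctss (0.910), Fcer1g (0.908), Laptm5 (0.899), Tyrobp (0.888) and Trem2 (0.883), followed by Pld4, Unc93b1, Aif1 and Gfm2 at 0.858 to 0.866, and 7 of the 10 were in the microglia or pan-myeloid lists. When the mean of each region, age and sex group was subtracted, the 10 highest included Ctss (0.836), Laptm5 (0.724), Tyrobp (0.664) and Fcer1g (0.645), and Fth1, Prdx6, Apoe, Tsc22d4 and S100a16 at 0.609 to 0.644, which are in neither list. In this measure 5 of the 10 were in those lists. These points share libraries, mice and regions, so r is a description. P2ry12, a receptor of resting microglia, ranked 384th over all libraries with r = 0.478.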

How the data were processed

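Whole-tissue RNA was measured in 847 libraries of 15 dissected regions. The authors deposited 1 table of raw read counts per gene, trimmed with Trim Galore 0.3.7 and aligned to GRCm38 with STAR 2.5.3a, per the submitters' processing notes, which also name DESeq2. The counting program and annotation are not given in the sources used here. All count columns matched a sample, and no libraries were identical.

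From the counts, log2 CPM was computed with TMM factors and a prior count of 2. Age slopes per region used edgeR 4.0.16 (quasi-likelihood test, filterByExpr, sex as covariate). Comparisons over mice and of a region against the others used limma 3.58.1 (trend) on 1 value per mouse. Both were adjusted by Benjamini-Hochberg over all genes tested, with a threshold of 0.05. Ratios, log2 of counts plus 0.5, were tested by 2-sided permutation (100000 resamples) of ages within sex or sexes within age, and by sex at 1 age with a 2-sided exact test. The models were tested on simulated data. R 4.3.3 was used.

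Mice are the replicates, and a mouse number pairs the libraries of 1 animal across regions, so that comparisons over mice count each mouse once. P-values measure the spread between these mice. With a median of 267 to 420 reads per subunit and library, counting noise limits single ratios, and intervals from counts would cover counting error only. Genes were named by a rule: the 3 members, up to 4 genes per complement list with the smallest adjusted p over the mice, the microglia list as a range, and the 10 genes most correlated with the members. A few genes that the rule names are not reported here. Genes of the other lists (cell types and myeloid factors) were named after their values were seen. The members and lists were chosen with earlier results of these data known. Fits without the library of mouse 23, 25 or 33 were added after the values were seen. Alternatives were RLE factors, library totals alone, no filter, DESeq2 1.42.0, other covariates, males alone, mice 16 to 56 alone, leaving out libraries under 1e+06 reads or against their labels, and leaving out mice in turn (each of the 59 for values over the mice, 12 of them for slopes within a region).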

Additional observations from a re-analysis of the deposited data

Results flagged for a closer look

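Groups of 4 to 10 libraries of 1 region and age were each examined once per subunit. In 13 of these 78 examinations a library stood apart by Dixon's test, from 8 libraries. Chance gives about 1 in 20, but the 3 subunits of a group share its libraries, so the 78 are not independent. The groups examined were those of 3 months in all 15 regions, of 21 months in posterior hippocampus, olfactory bulb and subventricular zone (the other regions had 11 libraries), and of 12, 15, 18 and 26 months in cerebellum and olfactory bulb. None of 33 examinations of mouse values, also counted once per subunit, found a mouse standing apart. The olfactory bulb library of mouse 33 at 3 months was highest for C1qa (54.7 CPM), C1qb (85.2) and C1qc (68.6). In pons at 3 months, mouse 25 was highest for C1qb (83.9) and C1qc (58.2). In cerebellum, mouse 23 was highest at 18 months for C1qb (99.4) and C1qc (69.1), and mouse 2 was lowest at 26 months for C1qb (37.7). In olfactory bulb, mouse 51 was highest at 18 months for C1qa (56.3) and C1qb (73.0), mouse 13 lowest at 12 months for C1qc (29.99) and mouse 14 lowest at 26 months for C1qc (39.7). In posterior hippocampus at 21 months, mouse 32 was lowest for C1qc (38.9). Without mouse 25 the pons slopes were 0.0691, 0.0593 and 0.0649 for C1qa, C1qb and C1qc, and without mouse 23 the cerebellum slopes were 0.0754, 0.0666 and 0.0727, all passing with edgeR. These libraries, too, were left out after their values were seen.

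The age slope differed between regions and between the sexes by a limma test of the difference itself. Above the other regions stood cerebellum (C1qa 0.0354, C1qb 0.0317, C1qc 0.0378), medulla (0.0260, 0.0261, 0.0284), pons (C1qa 0.0249, C1qc 0.0257) and corpus callosum (C1qa 0.0152, C1qb 0.0138). Below them stood olfactory bulb (C1qa -0.0307, C1qb -0.0289, C1qc -0.0301), visual cortex (-0.0278, -0.0257, -0.0313), motor cortex (-0.0258, -0.0251, -0.0228) and, for C1qa, anterior hippocampus (-0.0125). Males minus females, the slopes differed by -0.0174, -0.0191 and -0.0159 for C1qa, C1qb and C1qc.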

How the results depend on the processing

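The age slopes over the mice and from 15 months on kept their direction and passed under every alternative run. At 3 months alone, a setting chosen after seeing the data, males were higher by 0.0147, 0.0709 and 0.0550 for C1qa, C1qb and C1qc (exact permutation p of 0.698, 0.103 and 0.0873). Among mice with all 15 regions the slopes of males minus females were -0.0154, -0.0163 and -0.0143. With males alone, C1qb and C1qc at 12 months were 0.0999 and 0.123 above 3 months. C1qa had a higher slope than elsewhere in 4 regions with all mice, in 2 with males alone and in 2 with mice 16 to 56. C1qb and C1qc each went from 3 regions to 2 in both settings. For C1qb the count was 3 to 5 regions when 1 mouse was left out, 5 without mouse 25. The slope of C1qc to C1qb was -0.00092 with mice 16 to 56, 0.00177 with males alone (permutation p = 0.0469) and between -5.18e-05 and 0.000608 without 1 mouse, below 0 without mouse 25. Against 8 pan-myeloid genes the slopes were 0.00086, -0.0031 and -0.0028. The sex difference of C1qb to C1qa was 0.0251 with a prior of 2, 0.0283 with mice 16 to 56 and between 0.0220 and 0.0316 without 1 mouse.

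Neighbouring regions that differed numbered 4, 5 and 4 for C1qa, C1qb and C1qc with the replicate block (pairing libraries of a mouse), 1, 4 and 4 with library totals alone and 9, 5 and 4 in 3-month mice. They numbered 0 to 1 for C1qa and 1 to 2 for C1qb without 1 mouse. The replicate block left the regional spread of the ratios at a permutation p of 1e-05, and the other comparisons count each mouse once. Mice 16 to 56 gave 13, 12 and 12 regions with a rise. Medulla, pons and corpus callosum lost some calls against the other regions with males alone or mice 16 to 56, and cerebellum, motor cortex, olfactory bulb and visual cortex kept theirs. The cause of these changes was not tested.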

Other observations

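Marker genes of other brain cells moved in mixed directions with age, beside 21.2% of all genes that rose over the mice and 26.7% that fell. Of 5 neuronal genes, 3 fell over the mice, with slopes between -0.0089 and -0.00082 for the list. Of 5 astrocyte genes 3 rose, led by Gfap (0.0612 log2 units per month), an intermediate filament gene of reactive astrocytes, and 1 fell. Of 5 oligodendrocyte genes 3 rose, among them Mbp (0.0135), a protein of the myelin sheath. None of 5 choroid plexus epithelium genes and none of 5 blood genes passed the test in either direction.

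Sex accounted for 2.36%, 1.71% and 1.17% of the variance of C1qa, C1qb and C1qc beside region and age, and the mouse for a further 2.73%, 3.22% and 2.39%. The median gene had 0.0473% and 2.19%.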
